A study of Saccharomyces cerevisiae with 12 samples.

Results

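ECM33 (YBR078W) and APE2 (YKL157W) are a pair of intron-containing budding yeast genes in which reads join the annotated 5′ splice site to a 3′ splice site other than the annotated one. All rows of the deposited table with either gene as host were taken, which gave 29 of 6195 splice forms, 14 in ECM33 and 15 in APE2. The pair was chosen by the summed reads of its leading forms, which are among the highest for forms of this kind, so those totals describe the choice and are not tested. The table counts reads over splice forms in 12 libraries of ribosomal RNA-depleted RNA from Saccharomyces cerevisiae, with 1 library for each of 6 genotypes at 25 °C and at 37 °C. All strains are haploid, derive from BY4741 and carry his3Δ1, leu2Δ0, met15Δ0 and ura3Δ0, with MATa given for each. The wild type has no further change, set1Δ and set2Δ lack a histone H3 methyltransferase, prp43-1 carries an allele of the RNA helicase gene PRP43, and set1Δ prp43-1 and set2Δ prp43-1 carry both changes. Wild type, set1Δ and set2Δ are called PRP43 strains here, and the others prp43-1 strains. Per the labels, cultures grew in YPD at 25 °C. For the 6 warm libraries 37 °C is given as the temperature, with no time spent at it stated. No genotype is described by more than 1 strain, so a strain's own history cannot be told apart from its genotype.

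Ecm33 is a cell-surface protein held by a glycosylphosphatidylinositol anchor and needed for normal cell wall structure, and Ape2 is a metallo-aminopeptidase that removes single residues from the start of peptides. In splicing, an adenosine of the branch point first attacks the 5′ splice site, and the spliceosome then joins the exons at an AG downstream of it. In budding yeast the branch point lies in the near-invariant heptamer TACTAAC, and the factors Prp18, Slu7 and Prp22 act in the second step or in its proofreading. Prp43, with its partners Ntr1 and Ntr2, takes spliceosomes apart after the reaction or when they stall. The comparisons ask how temperature, the helicase allele and the loss of the methyltransferases go with the use of these sites.

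The stretch from TACTAAC to the start of exon 2 is shown for both genes because it holds every 3′ end on which the results turn. The sequences are from the RefSeq copy of the R64 reference, on the plus strand, with TACTAAC and the last 3 bases of each skipped stretch in capitals for forms with at least 10 reads and for the annotated intron.
ECM33, chrII:393481-393522: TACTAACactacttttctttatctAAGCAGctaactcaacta
APE2, chrXI:155594-155666: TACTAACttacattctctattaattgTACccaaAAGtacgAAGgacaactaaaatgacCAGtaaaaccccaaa

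The annotated ECM33 intron spans chrII:393181-393510 and is 330 nt long. It begins with GTATGT and ends with CAG, 24 nt past the branch-point adenosine. The leading ECM33 form skips chrII:393181-393507, 327 nt, and ends at the AAG directly before that CAG, 21 nt past the adenosine. This AAG is the first AG after the branch point, and the annotated CAG is the second. Its use leaves 3 more coding bases in the message, keeps the frame, and gives a reading frame of 430 in place of 429 residues.

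The annotated APE2 intron spans chrXI:155272-155654 and is 383 nt long, again from GTATGT to CAG. Its 3′ splice site lies 55 nt past the branch-point adenosine, and exactly 2 AG dinucleotides, both in AAG, lie between them. The first, 30 nt past the adenosine and 25 nt upstream of the annotated site, ends the form chrXI:155272-155629. The second, 37 nt past the adenosine and 18 nt upstream of the annotated site, ends the form chrXI:155272-155636. The site 18 nt upstream keeps the frame and gives 958 in place of 952 residues. The site 25 nt upstream shifts it, and the reading frame from the annotated start then meets a stop after 98 residues.

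The leading ECM33 form, called the 3-nt-upstream form below, held 2707 of the 2808 reads on listed ECM33 forms (96.4%) and was read in all 12 libraries. The leading APE2 form, the 18-nt-upstream form, held 1031 of 1156 APE2 reads (89.2%), also in 12 libraries. The 25-nt-upstream form held 88 APE2 reads (7.61%), in 11 libraries. In the authors' deposited table these 3 forms have the same p-value of 1.44e-05, a number per form for which no source used here says what it tests. Annotated introns are not in the table, so the reads cannot be set against annotated splicing, and a difference in site choice cannot be told apart from a difference in the amount of transcript.

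The other forms were rare. In ECM33, a 489-nt form from the annotated 5′ splice site to an AAG 159 nt inside exon 2 had 13 reads, 11 of them in PRP43 strains, and kept the frame with 376 residues. Another 10 ECM33 forms, from 12 to 276 nt long, lie whole within exon 2 and held 81 reads, 38 of them on a 36-nt skip and 15 on a 171-nt skip. None of these 10 has GT-AG ends, and each has a deposited p of 1 in the authors' deposited table. The remaining ECM33 forms were a 417-nt form (4 reads) and a 334-nt form that begins 4 nt before the annotated 5′ splice site and ends at the annotated 3′ splice site (3 reads). In APE2, 8 forms share the annotated 5′ splice site, with 1141 reads. Besides the 2 AG sites these are 6 forms without an AG at their end, with 22 reads in all, of which the form ending 32 nt upstream of the annotated site had 10. Of those 10 reads, 9 were in PRP43 strains and 8 of the 9 at 37 °C. A further 3 APE2 forms begin 2 nt inside the intron and held 10 reads, 2 lie in exon 2 with 5 reads, and 4 of the 15 had no read. In all, 7 of the 29 forms had at least 10 reads.

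**Figure D1:**
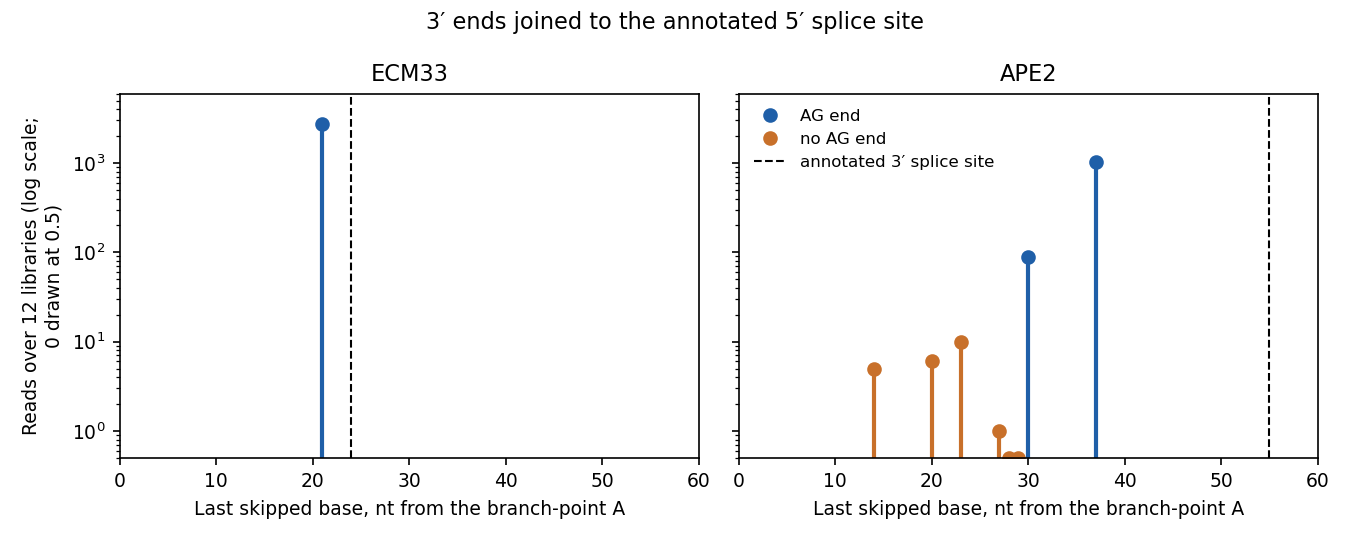
3′ ends joined to the annotated 5′ splice site of ECM33 (left) and APE2 (right), up to the annotated 3′ splice site (dashed line). The horizontal axis is the distance of the last skipped base from the branch-point adenosine in nt, and the vertical axis, on a log scale, is the reads over 12 libraries. The tall lines are AG ends, at 21 nt in ECM33 and at 30 and 37 nt in APE2, and APE2 ends without AG stay at or under 10 reads.

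Among all 385 listed forms that join an annotated 5′ splice site to an end within 50 nt of the annotated 3′ splice site, in 170 hosts, ECM33 held 37.4% and APE2 15.8% of the 7243 reads. The median of the 385 forms was 2 reads. APE2 had 8 such forms, a number that 1 other host exceeded, and ECM33 had 1. An end exactly 3 nt from the annotated one occurred in 15 of the 385 forms, 5 of them upstream, and after ECM33 the most reads of these 15 were 21, in RPS9B. The 5 most-read such forms of other hosts were in RPS10B (744 reads), SEC14 (135), LSB3 (132), RPL7A (97) and DTD1 (93). Reads of the ribosomal protein genes RPS9B, RPS10B and RPL7A are uncertain, because a near-identical copy of each could share them and how such reads were placed is not given in the sources used here.

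Depth sets the limits of what follows. The columns sum to between 214055 and 402886 reads on listed forms, 81.7% of these lie on SCR1, the RNA component of signal recognition particles, and the full depth is unknown. Levels are given as counts scaled to a common library total (CPM), computed by edgeR with TMM factors. These totals include the SCR1 reads, so CPM does not remove their weight. Levels relative to reads on other protein-coding hosts are therefore also given. In wild type the 18-nt-upstream APE2 form had 275 CPM at 25 °C and 472 CPM at 37 °C. Against reads on other protein-coding hosts it was instead lower at 37 °C (116 to 42724) than at 25 °C (99 to 32127). In the other strains, and for the leading ECM33 form, both scales gave the same direction between temperatures. The labels give MATa for all strains, but forms of 4 alpha-specific genes held reads in 3 strains: 99 (25 °C) and 15 (37 °C) in set2Δ prp43-1, 61 and 16 in set1Δ, 38 and 2 in set2Δ. The other 6 libraries had 0 such reads, and they alone held the 10 reads of the a-specific gene STE2. The fitted prp43-1 and interaction results of the leading forms are given also without both set1 strains, the only prp43-1 pair in which these reads differ. Any effect of a set2 deletion, or of a set1 deletion in PRP43 strains, cannot be told apart from this difference in mating-type reads.

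The 3-nt-upstream ECM33 form was lower at 37 °C in each genotype. Among the PRP43 strains, wild type went from 392 reads at 25 °C to 205 at 37 °C, set2Δ from 332 to 206 and set1Δ from 278 to 175. Among the prp43-1 strains, the single mutant went from 158 to 63 reads, the set2Δ double mutant from 276 to 116 and the set1Δ double mutant from 364 to 142. As a level this was 729 to 1205 CPM at 25 °C (median 970.1) and 288 to 850.3 CPM at 37 °C (median 537), so the ranges overlapped, although each strain had less at 37 °C. Over all 12 libraries the form fell by 0.83 on the log2 scale (SE 0.20, edgeR quasi-likelihood test, adjusted p = 0.0257), against 7.98% of 451 tested forms called in either direction (75 of 285 with SCR1 forms left out). The adjusted p was 0.0724 without prp43-1, 0.118 without set2Δ, 0.0884 without set2Δ prp43-1 and 0.0823 without TMM factors (edgeR), with the same direction. Relative to the reads on forms of other protein-coding hosts, its log2 level differed by a mean of -0.83 ± 0.35 (SD over 6 strains; exact two-sided sign-flip permutation test, p = 0.0312, the smallest that 6 pairs allow; adjusted p = 0.0417 over 4 tests). It was lower in 6 of 6 pairs, from -1.34 to -0.44.

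The same ECM33 form had lower levels in prp43-1 strains, a difference that missed the threshold in edgeR and passed it in an exact test over pairs that are not independent. The PRP43 strains had 553 to 1205 CPM (median 946) and the prp43-1 strains 288 to 899 CPM (median 625), with overlapping ranges. Compared at 1 temperature the groups were apart: 1041 to 1205 against 729 to 899 CPM at 25 °C, and 553 to 850.3 against 288 to 522 CPM at 37 °C. How many of all forms are apart in this way was not counted, so these ranges are a description only. In the model with an interaction the log2 difference was -0.39 at 25 °C (SE 0.26, edgeR adjusted p = 0.618; 0.585% of 513 forms called) and -0.92 at 37 °C (SE 0.27, edgeR adjusted p = 0.0614; 5.85% called). Without both set1 strains these were -0.49 (edgeR adjusted p = 0.563; 5 of 471 forms called) and -1.30 (edgeR adjusted p = 0.0240; 26 of 471 called). The fitted log2 difference was -0.66 (SE 0.20, edgeR adjusted p = 0.0747), which missed the threshold that 3.99% of 451 forms passed (27 of 285 with SCR1 forms left out). Without both set1 strains it was -0.88 (edgeR adjusted p = 0.0449; 31 of 471 forms called), and without set1Δ alone -0.81 (edgeR adjusted p = 0.0491; 31 of 492 called). Relative to other protein-coding hosts it was -0.58 ± 0.42 (SD, n = 6 pairs; exact sign-flip permutation p = 0.0312, adjusted p = 0.0417), lower in 6 of 6 pairs. The pairs at 25 °C and 37 °C hold the same strains and are not independent, so this exact p may be too small. The same holds for the edgeR p-values of prp43-1 averaged over both temperatures. Set against reads at annotated 5′ splice sites instead, the difference was -0.29 and lower in 4 of 6 pairs (exact p = 0.438).

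The 18-nt-upstream APE2 form had its lowest levels in the prp43-1 strains at 37 °C. Among the PRP43 strains, wild type had 99 reads at 25 °C and 116 at 37 °C, and the 2 deletions had 91 and 113 (set2Δ) and 167 and 103 (set1Δ). Among the prp43-1 strains, the single mutant had 68 and 4, the set2Δ double mutant 66 and 15, and the set1Δ double mutant 155 and 34. At 37 °C every prp43-1 strain, with 18.3 to 125 CPM, lay below every PRP43 strain, with 326 to 472 CPM. The share of all forms apart in this way was likewise not counted, so these ranges too are a description only. At 25 °C the ranges overlapped, with 215 to 382 CPM in prp43-1 strains and 275 to 625 CPM in PRP43 strains.

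In the model with an interaction, this APE2 form fell by 2.88 on the log2 scale in prp43-1 strains at 37 °C (SE 0.45, edgeR adjusted p = 0.00296), where 5.85% of 513 forms were called (24 of 343 with SCR1 forms left out). At 25 °C the difference was -0.36 (SE 0.40, edgeR adjusted p = 0.832; 0.585% called). Between temperatures it fell by 2.31 in prp43-1 strains (SE 0.45, edgeR adjusted p = 0.0224; 0.78% called), while in PRP43 strains the difference was 0.22 (SE 0.40, edgeR adjusted p = 0.803; 1.36% called). The difference between the 2 temperature effects was -2.52 (SE 0.60, unadjusted p = 0.00102 in edgeR). Adjusted over 513 forms it was 0.261, and 0 forms passed for the interaction (0% called, 54 at an unadjusted p under 0.05 in edgeR). DESeq2 called 3 of 5316 forms for it. The adjusted p of this interaction ran from 0.00215 to 0.671 over the alternatives (edgeR and DESeq2). It passed with all forms of at least 10 reads (0.00215), with all forms of at least 1 read (0.0409), without set1Δ (0.0345) and without both set1 strains (0.0200). In each of these fits 1 form was called, of 1440, 5316, 492 and 471 tested. The contrasts within 1 temperature or 1 group of strains were added after the data were seen.

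The calls within the prp43-1 strains leaned on single strains. The temperature difference in prp43-1 strains was -1.82 without prp43-1 (edgeR adjusted p = 0.110), -2.35 without set2Δ prp43-1 (0.416) and -2.35 without set2Δ (0.104). Without both set1 strains it was -2.89 (edgeR adjusted p = 0.00551; 3 of 471 forms called). The 37 °C difference for prp43-1 was -2.63 without set2Δ prp43-1 (edgeR adjusted p = 0.0755) and -2.64 without set2Δ (0.0526). Without both set1 strains it was -3.69 (edgeR adjusted p = 0.000306; 26 of 471 forms called), and the 25 °C difference was -0.18 (0.950). Averaged over both temperatures, the APE2 form had a log2 difference of -1.51 for prp43-1 (SE 0.46, edgeR adjusted p = 0.0747) and -0.96 for temperature (SE 0.46, edgeR adjusted p = 0.224). The first passed without both set1 strains, at -1.70 (edgeR adjusted p = 0.0449; 31 of 471 forms called). Relative to other protein-coding hosts the prp43-1 difference was -1.59 ± 1.35 (SD, n = 6 pairs; exact sign-flip permutation p = 0.0312, adjusted p = 0.0417 over 4 tests), lower in 6 of 6 pairs. These are again 3 strain pairs at 2 temperatures and not independent, so this p may be too small, as may the edgeR p averaged over both temperatures. The 3 pairs of strain means cannot pass (exact p = 0.25). By the same measure temperature gave -1.15 ± 1.42 (SD, n = 6 pairs; exact p = 0.0938, adjusted p = 0.0938), lower in 5 of 6 pairs.

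**Figure D2:**
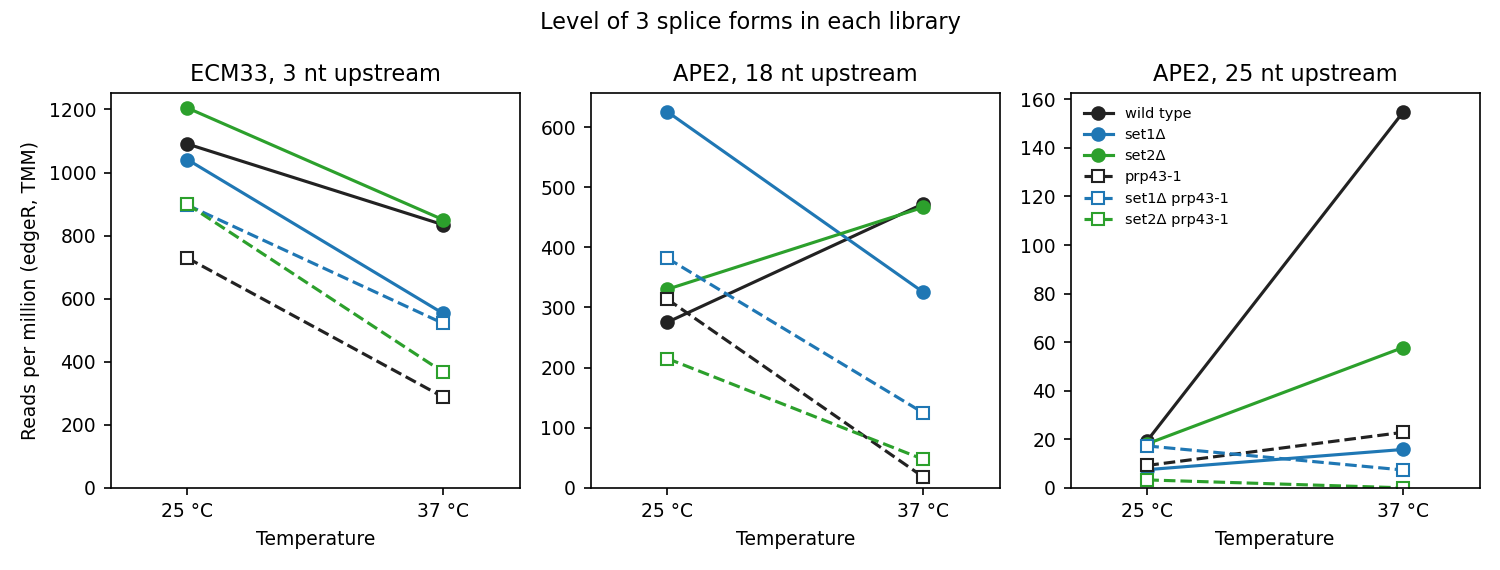
CPM at 25 °C and 37 °C of the 3-nt-upstream ECM33 form and the 18-nt- and 25-nt-upstream APE2 forms, with 1 point per library and a line per strain (solid and filled, PRP43 strains; dashed and open, prp43-1 strains). ECM33 lines all go down; for the 18-nt-upstream APE2 form the 3 prp43-1 strains end at 18.3 to 125 CPM and the 3 PRP43 strains at 326 to 472 CPM.

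The ratio of the leading ECM33 to the leading APE2 form needs no scaling between libraries. Wild type had 3.96 ECM33 reads per APE2 read at 25 °C and 1.77 at 37 °C, and the deletions had 3.65 and 1.82 (set2Δ) and 1.66 and 1.70 (set1Δ). The prp43-1 single mutant had 2.32 and 15.8, the set2Δ double mutant 4.18 and 7.73, and the set1Δ double mutant 2.35 and 4.18. All 3 prp43-1 strains had a higher ratio at 37 °C, and the 3 PRP43 strains did not move together. Between temperatures the log2 ratio differed by -0.71 ± 0.65 (SD, n = 3 pairs) in PRP43 strains and 1.49 ± 1.10 (SD, n = 3 pairs) in prp43-1 strains, a split made after the data were seen and not tested. Over all 6 pairs it was 0.39 ± 1.45 (SD; exact sign-flip permutation p = 0.656, adjusted p = 0.656 over 2 tests; higher in 4 of 6), and its sign rested on prp43-1, without which it was -0.08. For the prp43-1 allele it was 1.08 ± 1.41 (SD, n = 6 pairs; exact p = 0.156, adjusted p = 0.312), higher in 5 of 6 pairs. Neither passed the threshold. At 37 °C the mean over 3 pairs was 2.18 ± 0.93 (SD), a ratio 4.53 times that in PRP43 strains, and at 25 °C it was -0.03 ± 0.66 (SD).

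**Figure D3:**
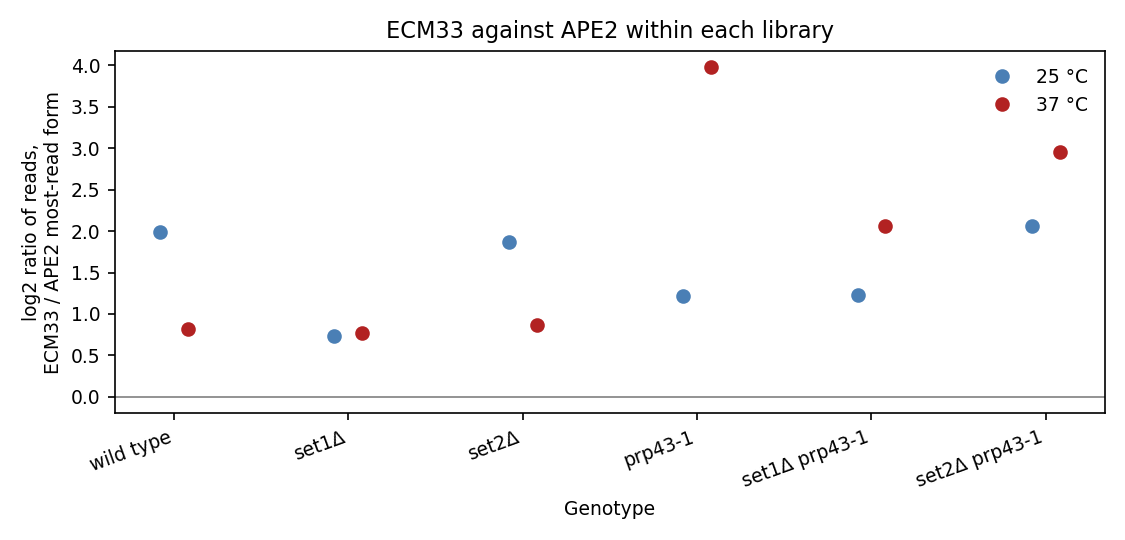
log2 ratio of reads on the leading ECM33 form to reads on the leading APE2 form, 1 point per library, by genotype and temperature. At 37 °C the PRP43 strains lie between 0.76 and 0.87 and the prp43-1 strains between 2.06 and 3.98.

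Within APE2, reads on the 2 upstream AAG sites stood in different proportions from library to library, while the tests of the shares did not pass. Over the 3 PRP43 strains the 25-nt-upstream form had 14 reads at 25 °C and 57 at 37 °C, and over the 3 prp43-1 strains 10 and 7. Wild type had 7 and 38 of these reads, set2Δ 5 and 14, and set1Δ 2 and 5. The prp43-1 single mutant had 2 and 5, the set1Δ double mutant 7 and 2, and the set2Δ double mutant 1 and 0. Wild type at 37 °C alone thus held 38 of the 88 reads. The form passed the filter on low counts only in the model with the interaction, where its temperature difference in PRP43 strains was 2.10 on the log2 scale (SE 0.82, edgeR adjusted p = 0.156). Its difference for prp43-1 at 37 °C was -2.85 (SE 0.89, edgeR adjusted p = 0.0827), so neither passed. Without both set1 strains the latter was -3.31 (edgeR adjusted p = 0.0427; 26 of 471 forms called). The counts that let the form through the filter are those of wild type and set2Δ at 37 °C, both PRP43 strains. The filter thus favoured the signs of these differences, so they are no separate evidence of a change.

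As a share of listed APE2 reads, the 25-nt-upstream form took 6.36% in wild type at 25 °C (Wilson 95% CI 3.12 to 12.6%) and 23.5% at 37 °C (17.6 to 30.5%). These intervals do not overlap, but they cover counting error only and not the spread between cultures, since each condition is 1 library. They may also be too narrow, because several reads can come from 1 molecule. The set1Δ share was 1.18% (0.323 to 4.19%) and 4.46% (1.92 to 10.03%), and that of set2Δ 5.10% (2.20 to 11.4%) and 10.4% (6.33 to 16.8%). In prp43-1 it was 2.74% (0.755 to 9.45%) and 55.6% (26.7 to 81.1%), the latter from 5 of 9 reads. In set1Δ prp43-1 it was 4.22% (2.06 to 8.45%) and 5.13% (1.42 to 16.9%). In set2Δ prp43-1 it was 1.47% (0.260 to 7.87%) at 25 °C and 0 of 15 reads at 37 °C, which allows a share of up to 20.0%. The share was thus higher at 37 °C in 5 of 6 strains, and only in wild type and prp43-1 were the intervals apart.

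The share of the 18-nt-upstream form differed in the opposite direction, since the 2 forms make up nearly all APE2 reads. Its mean difference between temperatures was -14.2 ± 18.2 percentage points (SD, n = 6 pairs; exact sign-flip permutation p = 0.0625, adjusted p = 0.25 over 4 tests), lower in 5 of 6 pairs. The 9 reads of prp43-1 at 37 °C weigh heavily here, and without that strain the value was -7.29 points. For the prp43-1 allele the difference was -2.30 ± 14.3 points (SD, n = 6 pairs; exact p = 0.688, adjusted p = 0.906), lower in 3 of 6 pairs. Within ECM33 the share of the leading form stayed between 92.7% and 100% in each library. Its mean difference was 0.21 ± 1.66 points for temperature (SD, n = 6 pairs; exact p = 0.906, adjusted p = 0.906) and 1.55 ± 1.75 points for prp43-1 (SD, n = 6 pairs; exact test, adjusted p = 0.25).

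**Figure D4:**
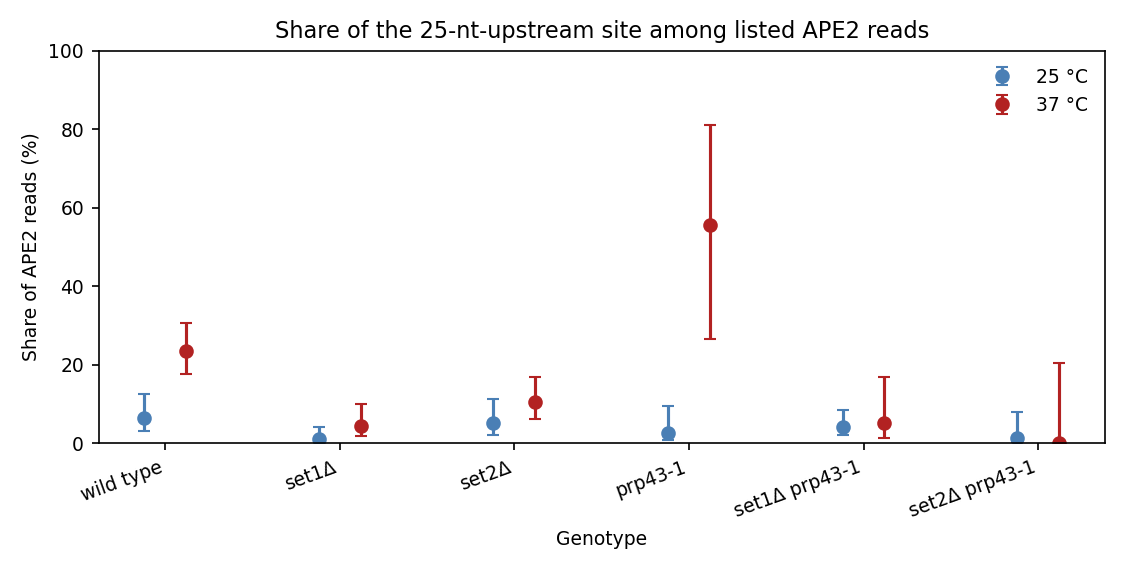
Share of listed APE2 reads on the 25-nt-upstream form, in percent, by genotype at 25 °C and 37 °C, with Wilson 95% intervals. Wild type stands at 6.36% and 23.5%, and the wide interval of prp43-1 at 37 °C rests on 9 reads.

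The 36-nt and 171-nt skips within exon 2 of ECM33 were also fewer at 37 °C. The 36-nt skip had 30 reads over the 6 libraries at 25 °C and 8 at 37 °C, and 27 in PRP43 against 11 in prp43-1 strains. The 171-nt skip had 11 and 4 reads at the 2 temperatures. The leading ECM33 form had 1800 and 907 reads in the same libraries. These exonic skips were too rare to pass the filter in the main model. They were fitted only in alternatives with looser filters or DESeq2, and those values are not given here.

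The deletions of SET1 and SET2 gave no called difference in either gene. For set1Δ the log2 difference was 0.11 in ECM33 (SE 0.24, edgeR adjusted p = 0.996) and 0.44 in the 18-nt-upstream APE2 form (SE 0.53, edgeR adjusted p = 0.996). For set2Δ it was 0.19 (SE 0.24, edgeR adjusted p = 0.949) and -0.07 (SE 0.53, edgeR adjusted p = 0.989). Of 451 forms, 0 passed for either deletion (0% called), with 15 and 17 at an unadjusted p under 0.05 in edgeR. DESeq2 called 39 and 36 of 5316 forms. With 4 pairs per deletion the exact test cannot pass the threshold, so the following values have no test. Relative to other protein-coding hosts, the APE2 form differed by 0.83 ± 1.12 for set1Δ and 0.36 ± 0.99 for set2Δ, and the ECM33 form by 0.10 ± 0.60 and 0.35 ± 0.55 (log2, SD, n = 4 pairs). The share of the 18-nt-upstream form in APE2 was higher by 17.9 ± 18.5 points in set1Δ and 18.8 ± 24.9 points in set2Δ (SD, n = 4 pairs each), higher in 4 of 4 pairs for each deletion. The largest of these differences, 42.7 and 55.6 points, were against the 9 reads of prp43-1 at 37 °C, and without that pair the means were 9.61 and 6.50 points.

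**Figure D5:**
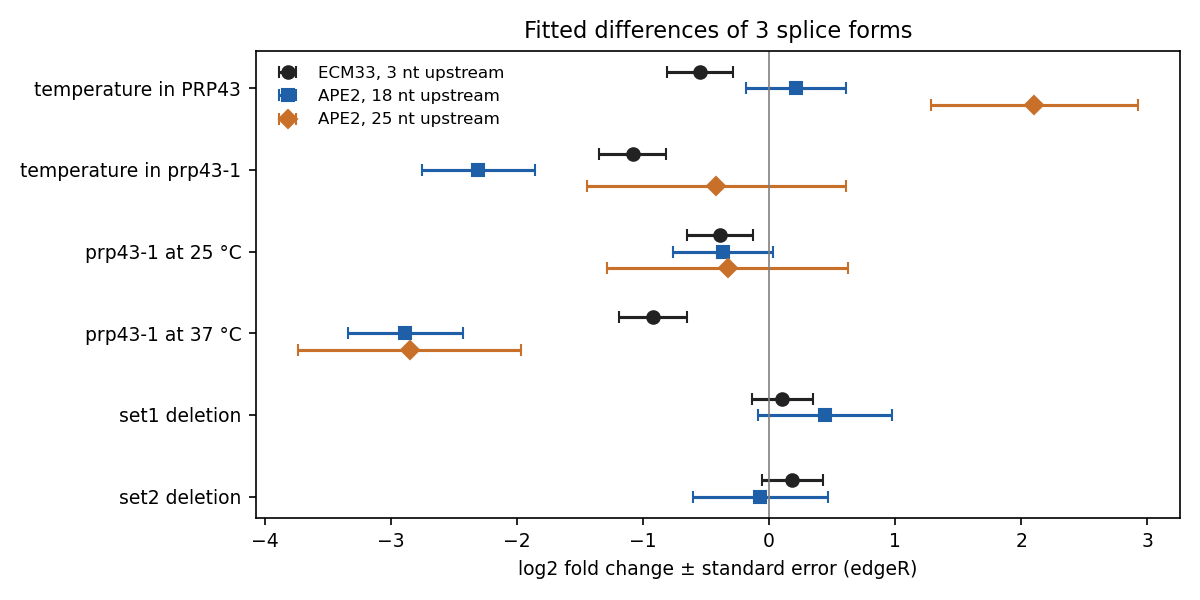
Fitted log2 fold changes with standard errors from edgeR for the 3 leading forms. The temperature and prp43-1 contrasts come from the model with the interaction and the deletion contrasts from the additive model, in which the 25-nt-upstream APE2 form was not tested. The 18-nt-upstream APE2 form stands at -2.31 for temperature in prp43-1 strains and at 0.22 in PRP43 strains.

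Among forms of the same kind in other genes, 3 were called lower in prp43-1 strains at 37 °C, not all independently of the filter. In the model with the interaction 10 such forms of other hosts were tested, and for prp43-1 at 37 °C these 3 were called, beside 30 of all 513 forms (5.85%), of which 21 were lower. The median log2 difference of the 10 was -1.17, against -0.15 over all 513 forms. All 10 values were negative, the smallest in size being LSB3 with -0.00044 (edgeR adjusted p = 0.999). The 3 called forms were in VPS75 (-3.30), ATG44 (-3.31) and YCL002C (-5.04), which are named here because they were called. Of the 10, those in VPS75, YCL002C, RPP1B and RPS27B passed the filter on low counts only in this model. In PRP43 strains the VPS75 and YCL002C forms had temperature differences of 1.93 and 2.74, so their values for prp43-1 at 37 °C are not independent of that filter. The signs and medians of the 10, here and for the interaction below, include them. For the interaction 8 of the 10 were negative and 0 called, with a median of -1.29, against -0.17 over all 513 forms. The 18-nt-upstream APE2 form had -2.52 and the ECM33 form -0.53 (SE 0.37, edgeR adjusted p = 0.668; -0.81 and 0.439 without both set1 strains). In the additive model 6 were tested, with 0 called for temperature (4 higher, 2 lower in sign). For prp43-1 in that model all 6 were lower in sign, with a median of -0.40. Of these, 1 was called, in ATG44 (-2.40, edgeR adjusted p = 0.0397), beside 3.99% of all 451 forms. The RPS10B form, the most read after the pair, ends in AAG 31 nt upstream of the annotated site and had an interaction of -0.01 (SE 0.62, edgeR adjusted p = 0.994). SEC14 had -1.25 (SE 1.18), LSB3 0.40 (SE 0.81), RPL7A -1.33 (SE 1.22) and DTD1 -1.19 (SE 1.09), none past the threshold. Whether APE2 or ECM33 differs from these forms was not tested.

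The forms whose level over the 12 libraries was most like that of ECM33 or APE2 lay in genes of glycolysis and of the ribosome. Of 404 forms of other hosts with at least 100 reads, the highest Pearson correlations of log2 CPM with the ECM33 form were 0.93 for a form in RPS22B (chrXII:856989-857057), 0.91, 0.88 and 0.87 for 3 forms in ENO2, and 0.88 for one in ENO1. With the APE2 form they were 0.88, 0.85 and 0.83 for the same ENO2 forms, 0.87 for one in PGK1 and 0.85 for the RPS22B form. ENO1 and ENO2 encode enolases and PGK1 phosphoglycerate kinase, abundant enzymes of glycolysis, and RPS22B encodes a ribosomal protein. The median over the 404 forms was 0.001 for ECM33 and 0.003 for APE2. These values share library totals and scaling factors, and are a description of 12 libraries.

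Relatives of the pair gave few listed reads. In the ECM33 family, PST1, a stress-induced cell wall protein gene, had 1 form with 25 reads, and SPS2 and SPS22 had none. In the aminopeptidase family, TMA108 had 1 form with 2 reads, and AAP1 and LAP2 had none. Of 11 genes for factors of 3′ splice site choice and spliceosome release, 4 had a listed form (PRP8, PRP16, PRP2 and PRP43), with 7 reads in all. Of the listed forms of these genes and of the mating-type genes, 1 passed the filter on low counts and 0 were called.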

How the data were processed

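Per the labels' protocols, hot-phenol RNA went through DNase I and ribosomal RNA depletion before TruSeq V2 library preparation. The authors deposited raw counts of reads per splice form and library, and 1 p-value per form whose test is not given in the sources used here. The submitters' processing notes name CASAVA, STAR 2.4.0 and the build sacCer3, without their roles. Reads were related to annotated introns of the R64 RefSeq annotation, with first and last skipped base counted from 1. None of 6195 forms coincides with 1 of the 281 annotated introns.

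Counts were fitted with edgeR 4.0.16 (R 4.3.3; filterByExpr, TMM, quasi-likelihood test, Benjamini-Hochberg adjustment over all forms tested, threshold 0.05) on all 12 libraries with additive terms for SET deletion, prp43-1 and temperature, and again with a prp43-1 by temperature interaction. The additive fit tested 451 forms, of which 2 were members, and the other 513, of which 3 were members. Standard errors are the fold change divided by the square root of the F statistic. With 1 library per condition, p-values rest on libraries of other conditions serving as replicates. For prp43-1 and the deletions, the additive fit treats the 2 libraries of a strain as independent. Ratios, shares and levels were compared over pairs of libraries that differ in 1 factor, by exact two-sided sign-flip permutation tests (scipy 1.17.1). DESeq2 1.42.0, other filters and scalings, and leaving out each strain were alternatives. The fits were tested on simulated data. Named forms are all members with at least 10 reads, the gene lists, the 5 most-read forms of the same kind in other hosts, and the 5 forms most alike in level to each leading form. The members and lists were chosen with earlier results of these data known.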

Additional observations from a re-analysis of the deposited data

Results flagged for a closer look

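For the 18-nt-upstream APE2 form the fitted temperature effects in the prp43-1 and PRP43 strains lay apart at an unadjusted p, but not after adjustment. The difference between these effects, the interaction in edgeR, was -2.52 on the log2 scale (unadjusted p = 0.00102, adjusted p = 0.261 over 513 forms in edgeR). In CPM the level was lower at 37 °C in 3 of 3 prp43-1 strains and in 1 of 3 PRP43 strains, set1Δ. Relative to other protein-coding hosts it was lower in 2 of 3 PRP43 strains, since wild type then had a log2 difference of -0.18. The 3 prp43-1 libraries at 37 °C held 53 reads of this form, against 332 in the PRP43 libraries.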

How the results depend on the processing

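Of 232 alternatives for the 20 leading results, 179 kept direction and side of the threshold. The log2 interaction for the 18-nt-upstream APE2 form passed with all forms of at least 1 read (-2.41), with forms of at least 10 reads (-2.44) and without both set1 strains (-3.51), and ran from -2.96 to -1.997 with 1 strain left out. Its prp43-1 difference passed at 37 °C alone (-2.78), without SCR1 forms (-1.42), with at least 1 read (-1.45), with at least 10 reads (-1.45) and without both set1 strains (-1.70), and ran from -1.70 to -1.14 with 1 strain left out. Its temperature difference passed with at least 10 reads (-0.98). Its set2Δ difference turned positive at 37 °C alone (0.45), with DESeq2 (0.046), without SCR1 forms (0.081) and with at least 1 read (0.030), and ran from -0.44 to 0.32 with 1 strain left out. Its temperature difference in PRP43 strains ran from -0.10 to 0.62 in the same way.

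The ECM33 temperature difference missed the threshold with at least 1 read (-0.89) and without TMM factors (-0.95, where the median of all tested forms was -0.17), and ran from -0.92 to -0.73 with 1 strain left out. Its prp43-1 difference passed without both set1 strains (-0.88) and ran from -0.81 to -0.44, its set1Δ difference from -0.18 to 0.52 and its set2Δ difference from -0.070 to 0.52. Relative to other protein-coding hosts, leaving out 1 pair gave -0.90 to -0.72 for temperature and -0.68 to -0.46 for prp43-1 in ECM33, and -1.83 to -1.14 for prp43-1 in APE2, where 5 pairs cannot pass the exact test. Averaging each strain over temperatures left 3 pairs, which cannot pass it either (-0.58 in ECM33, -1.59 in APE2). Against reads at annotated 5′ splice sites, the prp43-1 difference of ECM33 was -0.29 and the APE2 temperature difference passed at -1.53. With 1 pair left out, the log2 ratio between temperatures ran from -0.084 to 0.70, the APE2 share for prp43-1 from -5.89 to 2.68 points and the ECM33 share for temperature from -0.24 to 0.65 points. Over all tested forms, calls ran from 2 to 75 around 36 for temperature, from 7 to 42 around 18 for prp43-1, from 1 to 49 around 30 for prp43-1 at 37 °C and from 0 to 13 around 4 for temperature in prp43-1 strains. The 75 for temperature were among 285 forms tested with SCR1 forms left out. Calls ran from 0 to 12 around 3 for prp43-1 at 25 °C and from 0 to 30 around 7 for temperature in PRP43 strains. Beyond fewer samples or pairs, the cause of these changes was not tested. With genotype as a block, which pairs the 2 temperatures of each strain, the ECM33 temperature difference was -0.83 (edgeR adjusted p = 0.0277), that of the 18-nt-upstream APE2 form -0.998 (0.195) and its interaction -2.52 (0.216), with no call changed. Forms under 10 reads, and the 9 APE2 reads of prp43-1 at 37 °C, limit every share.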
